A study of Mus musculus with 30 samples.

Results

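The brains of 10 male mice were compared by the number that ends each mouse's name in the labels, 5 mice numbered 1 against 5 numbered 2, with each number 2 brain set against the number 1 brain of the same coat class. These are 10 of the 30 arrays of the series, whose other 20 hold liver and kidney of the same classes and numbers. All mice carried the viable yellow allele of agouti opposite nonagouti (Avy/a), were 22 days old, and came from a sibling-mated colony in which the allele arose in C3H/HeJ stock. Each number holds 1 mouse of each coat class. Values below are always listed from yellow over slightly mottled, then mottled and heavily mottled, to pseudoagouti. The labels do not say what the number stands for (a litter, a cage, a day of dissection or a processing run), and they give no batch or scan date, so none of these can be told apart from it. Nothing but the number separates the groups, and the p-values measure the spread between single mice, 1 array each.

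The viable yellow allele is an insertion of a retrotransposon upstream of agouti, and its variable methylation makes genetically alike mice differ in coat. The coat classes are balanced here, so the comparison concerns what else can differ between 2 sets of brains. Whole-tissue RNA from brain mixes regions with sharply different gene programmes: granule and Purkinje cells of the cerebellum, peptide neurons of the hypothalamus, dopamine neurons of the midbrain and excitatory neurons of the cortex each have genes the others lack. It also carries genes that answer within minutes to hours to neuronal activity (immediate early genes) or to the stress hormone corticosterone (glucocorticoid-induced genes). In bulk tissue, fewer cells of a type and less RNA per cell cannot be told apart.

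All 10 arrays held brain: Snap25, a synaptic protein, had signals of 13356 to 24086 in brain and at most 23.8 in liver or kidney, while Fgb, made by liver, was at most 6.40 in brain. Signals are deposited MAS5 intensities on a linear scale, and differences are number 2 minus number 1 on log2(signal + 16), with the SD over 5 pairs. Of 45037 probe sets, 22519 had a mean brain signal of at least 160.5 and were tested. A probe set could reach that mean through the brains of 1 number, or through 1 array, alone.

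The arrays themselves differed along the number. The highest signal on the array was 37230, 36070, 20060, 24130.5 and 34204 in the number 1 brains and 21034, 17624, 24161, 19326 and 16761 in the number 2 brains. In 3 pairs (yellow, slightly mottled and pseudoagouti) number 1 was higher by 1.77, 2.05 and 2.04-fold, while the mottled and heavily mottled pairs were within 1.20 and 1.25-fold. These are called the unlike-signal and the like-signal pairs, by a limit of 1.5-fold. The brightest probe set belonged to Mbp, a myelin protein, on 5 of the 10 arrays. It belonged to Tuba1a, a tubulin, on heavily mottled 1 and to Rps29, a ribosomal protein, on pseudoagouti 2. On yellow 1, which had the highest signal of all, it was a probe set listed for the haemoglobin genes Hba-a1 and Hba-a2. On mottled 1 and slightly mottled 2 it had no symbol. The division into like-signal and unlike-signal pairs is therefore not independent of these genes. Against the number 1 mean of 30340 ± 7737, the number 2 mean was 19780 ± 2947 (SD, n = 5; two-sided exact permutation p = 0.0397, adjusted p = 0.119 over 10 measures). The like-signal pairs were not alike in everything, because mottled 1 and heavily mottled 1 had median signals of 197 and 205 against 138 to 155 on the other 8 arrays. The cre hybridisation spike, a control added to every array, was higher in number 1 in 4 of 5 pairs (log2 14.6 ± 0.278 against 14.02 ± 0.299, exact permutation p = 0.0238, adjusted p = 0.119). None of the 10 measures passed the adjusted threshold of 0.05 with all pairs, while 6 of 10 did without the mottled pair. With 4 arrays per number, the smallest p of this test passes adjustment only when several measures reach it together. The 6 are therefore not separate findings, and the test took no account of the pairing.

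**Figure D1:**
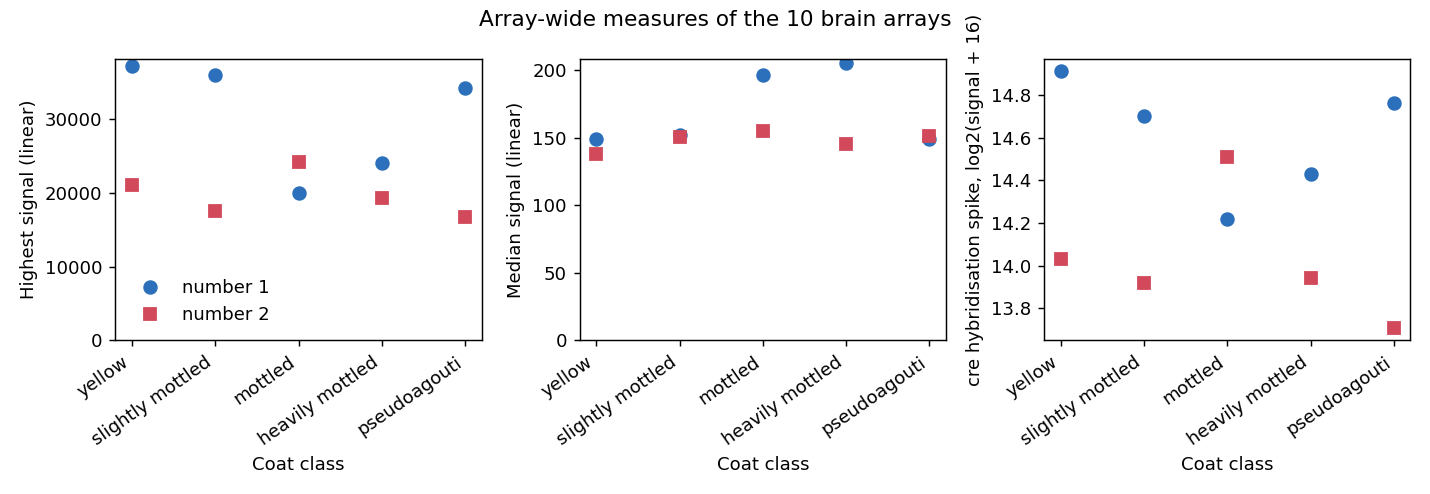
Highest signal, median signal and the log2 level of the cre spike on each of the 10 brain arrays, by coat class (circles, number 1; squares, number 2; 1 array per point). Number 1 had the higher highest signal in every class but mottled, and the 2 raised median signals, 197 and 205, are mottled 1 and heavily mottled 1.

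The difference between the numbers depended on how bright a probe set was, and in opposite ways in the 2 kinds of pair. Among the brightest 2252 of the tested probe sets, in 10 bins by mean brain signal, the median difference was -0.17 in the unlike-signal pairs and 0.11 in the like-signal pairs. Among the dimmest 2251 it was 0.02 in the unlike-signal pairs and -0.35 in the like-signal pairs. Over all tested probe sets the median was -0.02. Gene lists are therefore given below in both kinds of pair where the 2 differed.

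**Figure D2:**
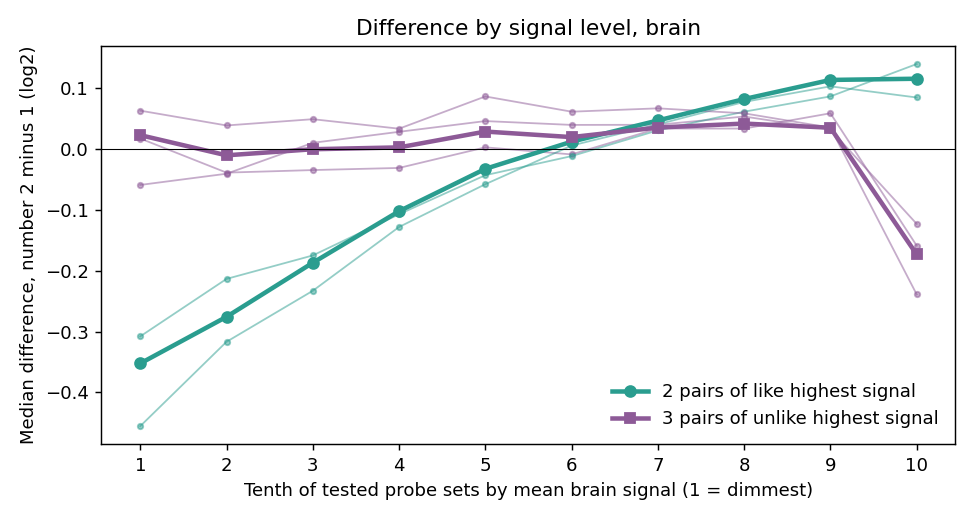
Median log2 difference, number 2 minus number 1, in 10 bins of tested probe sets from the dimmest to the brightest (thin lines, single pairs; thick lines, the 2 like-signal pairs and the 3 unlike-signal pairs). The brightest bin lies at -0.17 in the unlike-signal pairs and at 0.11 in the like-signal pairs, and the dimmest at 0.02 and -0.35.

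With all 5 pairs, no probe set passed an adjusted p of 0.05 in limma's paired fit with Benjamini-Hochberg adjustment (0 of 22519, 0%). The smallest adjusted p was 0.0571. At an unadjusted p under 0.05, 2343 probe sets (10.4%) were higher in number 2 and 2253 (10%) higher in number 1. All list counts below at that p are to be read against these 2 shares. In 669 (2.97%) all 5 number 2 signals lay above all 5 number 1 signals, and in 643 (2.86%) the reverse held. Without the pairing by coat class, 293 probe sets (1.3%) passed as higher in number 2 and 215 (0.955%) as higher in number 1. The 3 unlike-signal pairs alone gave 1463 (6.5%) and 1444 (6.41%), and leaving out the mottled pair gave 257 and 186, or the heavily mottled pair 280 and 128.

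The 12 genes higher in number 2 with the smallest p in the paired fit included Nr4a2, Pou3f1, Tcf4 and Gabra5. Of these 12, none passed the paired fit, all were higher in 5 of 5 pairs, 12 of 12 had the same sign in the like-signal pairs, and in 9 the groups did not overlap. Without the pairing, all 12 passed. The shared sign, the lack of overlap and this pass are no independent evidence, since the 12 were chosen by p in the same 5 pairs. Nr4a2, an orphan nuclear receptor that is both an immediate early gene and a factor of dopamine neurons, had signals of 693, 588, 858, 557 and 545 in number 1 and 1692, 1502, 2275, 993 and 1809 in number 2, a difference of 1.30 ± 0.32 (2.46-fold, adjusted p = 0.0571). Every number 2 brain was above every number 1 brain. Pou3f1, a POU-domain transcription factor of upper cortical layers and myelinating glia, had 694, 595, 527, 539 and 683 against 1260.2, 1349.5, 1197, 1364 and 1521, a difference of 1.12 ± 0.17, with 1.24 in the like-signal and 1.05 in the unlike-signal pairs. Its other tested probe set differed by 0.06. Tcf4, a helix-loop-helix factor needed for neuronal development, differed by 1.58 ± 0.25, and its 5 other tested probe sets were also higher in number 2, by 0.28 to 1.11. Gabra5, the GABA-A receptor subunit best known from the hippocampus, had 785, 708, 1059, 950.0 and 512 against 1958, 2127, 1682, 1698 and 1507, a difference of 1.18 ± 0.41.

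The remaining genes of that group were Slc1a2, the main astrocyte glutamate transporter (1.51 ± 0.62), Epha4, an axon guidance receptor (1.06 ± 0.37), Kcnt2, a sodium-activated potassium channel (1.32 ± 0.54), B3galt2, a galactosyltransferase (1.50 ± 0.62), Nme1, a nucleoside diphosphate kinase (1.25 ± 0.46), Hectd2 (1.16 ± 0.41), 9630013A20Rik (1.16 ± 0.14) and Gm1976 (0.99 ± 0.27). Probe sets of 1 gene did not all run together. The only other tested probe set of Nme1 differed by -0.30 and that of Hectd2 by -0.39, and the 3 others of Nr4a2 lay between -0.06 and 0.39.

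Among the 12 genes with the smallest p that were higher in number 1, the maternally expressed noncoding RNA Meg3 was the brightest. Its named probe set had signals of 11257, 13993, 9399, 7833 and 10329 in number 1 and 3666, 5373, 6623, 4950.1 and 4038 in number 2, a difference of -1.10 ± 0.49 (adjusted p = 0.0704). The difference was -0.58 in the like-signal and -1.45 in the unlike-signal pairs, and -0.64 with the highest signal as a covariate. The groups did not overlap, and the 10 other tested probe sets of Meg3 were all lower in number 2, by -1.17 to -0.48, each at an unadjusted p under 0.05. Magel2, an imprinted gene of the Prader-Willi region with its highest expression in hypothalamus, had 398, 554, 322, 452 and 370.2 against 195, 182, 189, 201 and 139.6 (-1.13 ± 0.31). Kmt2a, a histone H3 lysine methyltransferase, differed by -0.73 ± 0.14 and Hdac11, a histone deacetylase, by -1.01 ± 0.33, both without overlap, but the other probe set of each differed by only -0.07 and -0.20. Cds2, an enzyme of phospholipid synthesis, differed by -0.79 ± 0.19, and its 5 other probe sets were also lower in number 2.

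Slc1a6, the glutamate transporter of Purkinje cells, had 150.2, 249, 70.6, 101 and 1056 in number 1 and 9.40, 23.3, 20.6, 11.8 and 42.3 in number 2. The groups did not overlap, and the number 2 signals are so low that the size of the log difference depends on the offset of 16 and is not given. Slc1a6 reached the mean brain signal required for testing only through pseudoagouti 1 (1056), the array on which the cerebellum markers below stood out. Its entry into the ranking therefore rested on that array. Alpl, the tissue-nonspecific alkaline phosphatase found on brain endothelium and neurons, had 284, 361, 341, 428 and 254 against 156, 125, 152, 178 and 156 (-1.03 ± 0.31). Slc7a3, a cationic amino acid transporter, differed by -0.83 ± 0.26, Syne4, a nuclear envelope protein, by -1.68 ± 0.68, and Sgip1, an adaptor of endocytosis, by -0.98 ± 0.29. E2f5, a cell cycle factor, had 798, 959, 1373, 1149 and 908 against 285, 639.5, 61.1, 69.4 and 65.6, but its 2 other tested probe sets were higher in number 2, by 0.33 and 0.59. Cux2, a transcription factor of upper cortical layers, also split by probe set: the one named by its p differed by -1.39 ± 0.34 and its brightest by 0.66 ± 0.19, each in 5 of 5 pairs. The 3 others of Sgip1 differed by 0.06 to 0.56. Of these 12 genes none passed the paired fit, while all passed without the pairing, and in all 12 the groups did not overlap and the like-signal pairs had the same sign. The shared sign, the lack of overlap and the pass without pairing are no independent evidence, since all 5 pairs entered the choice.

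Markers of brain regions differed between the brains, in part along the number; the labels do not say which part of the brain was taken, and differences in dissection were not tested. Markers of the cerebellum stood out on 1 array. Pcp2, a Purkinje cell protein, had 12110.5 in pseudoagouti 1 and 18.1 to 154 in the other 9 brains. Gabra6, the GABA-A receptor subunit of granule cells, had 8967 in pseudoagouti 1 and 44.1 to 111 elsewhere, and Cbln3, a synaptic organiser of granule cells, 6259 against 6.60 to 70.3. The summed signal of the 13 cerebellum markers was 90395 in pseudoagouti 1 and 9302 to 16787 in the other 9. Over the 13 markers the median difference was -1.24, with pair medians of -0.02, -0.37, 0.10, -1.36 and -3.75, and 7 were higher in number 1 at an unadjusted p under 0.05. Without pseudoagouti the median was -0.65 with 3 of 13, without heavily mottled 4 of 13, and with the highest signal as a covariate -0.17 with 1 of 13.

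Markers of thalamus, hypothalamus and brainstem were higher in number 1 in every pair but mottled. Their summed signal was 12823, 20104, 3734, 18797 and 11691 in number 1 and 5232, 8818, 5859, 4065 and 4298 in number 2. Of 9 tested members 7 were higher in number 1 at an unadjusted p under 0.05 and none in number 2, with a median of -1.04 (all tested probe sets, -0.02). Without the heavily mottled pair the median was -0.63 with 4 of 9, without pseudoagouti also 4 of 9, and with the highest signal as a covariate -0.48 with 0 of 9. Slc17a6, the vesicular glutamate transporter of subcortical neurons, had 2831, 4559, 406, 4619 and 1808 against 1073, 1897, 1209.7, 652 and 736. Slc6a3, the dopamine transporter, had 98.0, 2222, 198, 769 and 145 against 62.4, 74.5, 71.9, 30.4 and 52.9, without overlap, and Th, the rate-limiting enzyme of dopamine synthesis, was higher in number 1 in 5 of 5 pairs (-1.09 ± 0.95). Slightly mottled 1 and heavily mottled 1 held the most of both dopamine markers. Hap1, the huntingtin-associated protein rich in hypothalamus, differed by -0.83 ± 0.62.

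Several hypothalamic peptides were higher in most number 1 brains. Pmch, the precursor of melanin-concentrating hormone, which is made by neurons of the lateral hypothalamus, had 4476, 5502, 115, 2262 and 3852 in number 1 and 57.8, 1288, 115, 67.2 and 90.4 in number 2. It was above 1000 in 4 number 1 brains and 1 number 2 brain, slightly mottled 2, and at or below 115 in the other 5. Hcrt, the orexin precursor of neighbouring neurons, had 1087, 987, 247, 494 and 833 against 191, 423, 273, 166 and 234. Avp, vasopressin, had 801, 876, 85.1, 1294 and 1538 against 194, 276, 164, 63.3 and 100.1. Crh, corticotropin-releasing hormone, which cortical interneurons also make, went the other way, with 705, 212, 1319, 603 and 762 against 1080.1, 1485, 1774, 1173 and 1812. Of the 13 tested peptides of that list, 5 were higher in number 1 at an unadjusted p under 0.05 and 1, Crh, in number 2 (median -0.30, with -0.38 in the like-signal and -0.08 in the unlike-signal pairs). Gh, growth hormone and the only tested pituitary marker, had 1074 in yellow 1, 2092 in pseudoagouti 1 and 11.7 to 65.4 in the other 8.

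Cortex and hippocampus markers were higher in number 2. Of 11 tested, 6 were higher in number 2 at an unadjusted p under 0.05 and none in number 1, with a median of 0.66 and pair medians of 0.54, 0.10, 0.13, 2.01 and 0.64. Without the heavily mottled pair the median was 0.38 with 4 of 11. Neurod6, a factor of cortical projection neurons, had 982, 803, 2182, 681 and 703 against 2847, 2518, 3003, 2788 and 1484, higher in number 2 in 5 of 5 pairs (1.33 ± 0.60). Tbr1, a factor of deep cortical layers, differed by 1.08 ± 1.07 and Lamp5, a membrane protein of cortical neurons, by 0.78 ± 0.73. Heavily mottled 1 had the lowest summed signal of this list, 12572 against 25607 to 42211 in the other 9. Of 10 tested striatum markers 1 was higher in number 2 at an unadjusted p under 0.05, Gng7 (0.65 ± 0.68), a G protein subunit, with a median of 0.32, while Ppp1r1b, the dopamine signalling protein DARPP-32, differed by 0.61 ± 0.88. Ttr, the thyroid hormone carrier made by choroid plexus, had 31779, 31547, 373, 14659.9 and 2175 against 18263, 15586, 13281, 17194 and 3638, with no common direction. Of 6 tested choroid plexus markers 1 was higher in number 2 at an unadjusted p under 0.05, and of 6 of ependyma and 7 of olfactory bulb none in either direction.

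**Figure D3:**
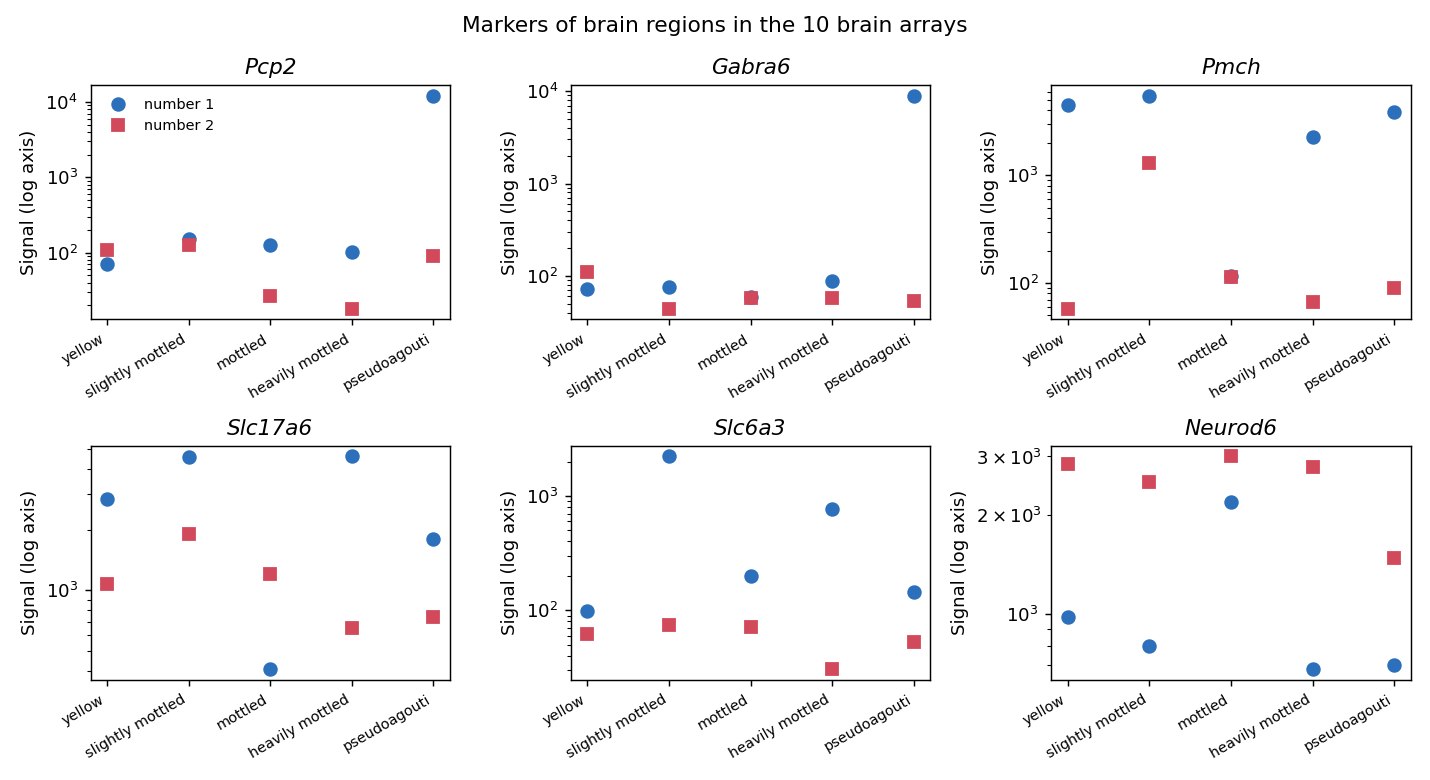
Signals of 6 region markers on a log axis in the 10 brains, by coat class (circles, number 1; squares, number 2): Pcp2 and Gabra6 (cerebellum), Pmch (lateral hypothalamus), Slc17a6 (thalamus and brainstem), Slc6a3 (midbrain dopamine neurons) and Neurod6 (cortex). The cerebellar pair is high only in pseudoagouti 1, Pmch exceeds 1000 in 4 number 1 brains and in slightly mottled 2, and Neurod6 is higher in number 2 in each class.

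Imprinted genes, many of which are richest in hypothalamus, had lower values in number 2. Of 22 tested, 11 were higher in number 1 at an unadjusted p under 0.05 and none in number 2, against 10% and 10.4% of all tested probe sets, and 20 of 22 had the lower mean in number 2. With the highest signal as a covariate the count was 2 of 22 and the median -0.18. Over all 5 pairs the median was -0.37, with -0.23 in the like-signal and -0.51 in the unlike-signal pairs. In liver and kidney of the same mice the medians were 0.24 and 0.25, so the brain stood on the other side of zero; over all tested probe sets they were 0.04 and 0.07. Dlk1, a paternally expressed Notch-like ligand, had 539, 819, 19.4, 804 and 391 against 51.1, 189, 62.5, 68.3 and 101, high in the 4 number 1 brains that were also rich in Pmch. Grb10, an adaptor of insulin signalling, had 1796, 2217, 1382, 2794 and 1627 against 1224, 1369, 1210.1, 1144 and 1268, without overlap. Gnas, the stimulatory G protein locus, had 17807, 20659, 12036, 13229 and 16528 against 11134, 10097, 11687, 10632 and 8578, also without overlap. Nnat, a membrane proteolipid, differed by -0.66 ± 0.50. The thalamus, hypothalamus and brainstem markers given above were also higher in number 1 in every pair but mottled, where the imprinted median was -0.04, and their part in these values was not tested.

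Nuclear long noncoding RNAs are in part the same imprinted transcripts. Of 9 tested members, 5 were higher in number 1 at an unadjusted p under 0.05 and 1 in number 2. Their median was -0.40, with -0.14 in the like-signal and -0.56 in the unlike-signal pairs. Snhg11, a neuronal host RNA, had 8510.2, 9498, 8547, 7522 and 8606 against 5212, 5287, 6315, 6674 and 6341, without overlap. Rian, from the same imprinted cluster as Meg3, differed by -0.76 ± 0.72, nearly all of it in the unlike-signal pairs (-1.25 against -0.03). Neat1, the scaffold of paraspeckles, had 163, 143, 397, 462 and 124 against 399, 478, 447, 477 and 446, so its 3 low values were the number 1 arrays of the unlike-signal pairs. Malat1, a speckle RNA, had no common direction (-0.25 ± 1.23).

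Genes induced by glucocorticoids were higher in number 2 in both kinds of pair. Of 18 tested, 7 were higher in number 2 at an unadjusted p under 0.05 and none in number 1, against 10.4% and 10% of all tested probe sets, and 15 of 18 had the higher mean in number 2. The count was 11 without the mottled pair and 3 with the highest signal as a covariate. The median was 0.34, with pair medians of 0.43, 0.35, 0.09, 0.78 and 0.37, and it was 0.39 in the like-signal and 0.43 in the unlike-signal pairs. Sgk1, a kinase that glucocorticoids induce within an hour, had 2160.1, 2032, 2456, 1929 and 2615 against 4012, 4060.3, 2787, 3409 and 3573, without overlap (0.67 ± 0.34, adjusted p = 0.0804). Cebpd, a C/EBP transcription factor, had 170.0, 323, 202, 203 and 202 against 453, 674, 397, 345 and 458, also without overlap (1.03 ± 0.23, adjusted p = 0.0704). Fkbp5, a co-chaperone that restrains the glucocorticoid receptor, had 781, 539, 639.7, 851 and 817 against 1780.5, 1318, 756, 1616 and 1487 (0.89 ± 0.40); mottled 2 alone fell within the number 1 range.

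Zbtb16, a zinc finger factor, had 736, 732, 1349, 787 and 666 against 1692, 1400.5, 1060.5, 2160.3 and 1358, and mottled was the only class in which number 1 was higher. Mertk, a receptor for dying cells (0.52 ± 0.37), Tsc22d3, the leucine zipper protein GILZ (0.49 ± 0.50), and Per1, a clock gene with glucocorticoid control (0.33 ± 0.31), completed the 7. The list also lay above zero in the other organs of the same mice, with medians of 0.31 in liver and 0.59 in kidney. Separate limma fits of those organs used the probe sets tested in brain. In them Zbtb16 passed an adjusted p of 0.05 in liver (1.50, adjusted p = 0.017) and in kidney (2.90, adjusted p = 0.017). Cebpd (1.04, adjusted p = 0.024), Fkbp5 (1.14, adjusted p = 0.034), Tsc22d3 (1.14, adjusted p = 0.022) and Per1 (1.20, adjusted p = 0.018) passed in kidney. The share of all probe sets that passed in those organs was not counted, so these calls have no background beside them.

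Over all 5 pairs, immediate early genes had no common direction. Of 22 tested, 7 were higher in number 2 at an unadjusted p under 0.05 and 1 in number 1, with a median of 0.10. Of all tested probe sets 10.4% and 10% were so. In the like-signal pairs 18 of 22 were higher in number 2 (median 0.29), and in the unlike-signal pairs 10 of 22 (median -0.04). Besides Nr4a2, the groups did not overlap for Ier5, an early response factor, with 1095, 969, 1159, 868 and 1233 against 1399.9, 1894, 1794, 1705 and 1622, and for Homer1, a scaffold of glutamate receptors, with 2164, 1380.1, 3433, 540.4 and 1954 against 3637, 5280.0, 3786, 4736 and 3960.5. Egr3, a zinc finger factor (0.93 ± 0.55), and Dusp6, a phosphatase of ERK (0.64 ± 0.39), were higher in number 2 in 5 of 5 pairs. Npas4, the most strictly activity-dependent of these factors, was lower (-0.76 ± 0.62), and Fos, the archetype of the class, had 2270.2, 2491, 3125, 2757 and 2199.6 against 1457, 3325, 5271, 1507 and 1252, higher in number 2 in 2 of 5 pairs. The cortex and hippocampus markers, whose neurons express Homer1 and Egr3, had positive medians in all 5 pairs as well, and their part was not tested.

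**Figure D4:**
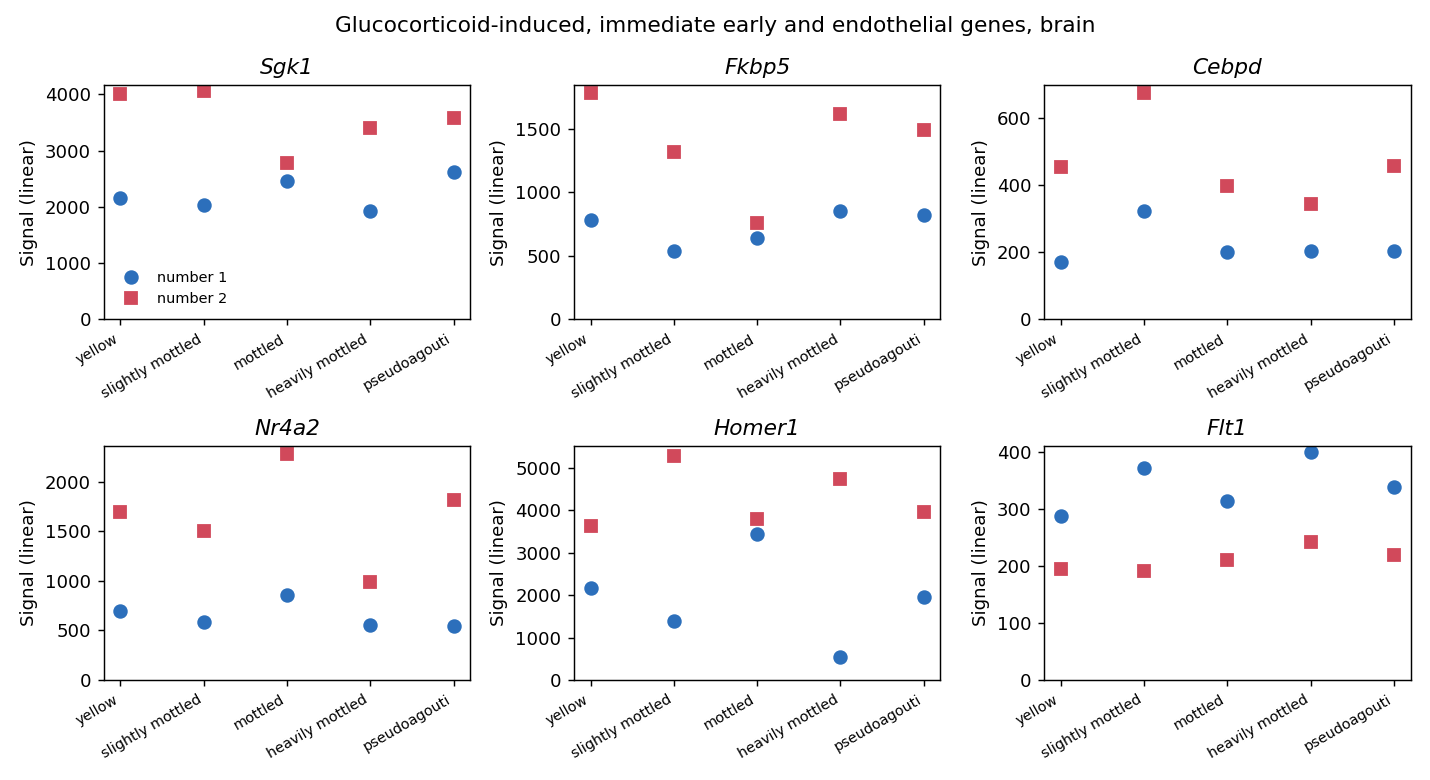
Linear signals of Sgk1, Fkbp5 and Cebpd (glucocorticoid-induced), Nr4a2 and Homer1 (immediate early) and Flt1 (endothelial) in the 10 brains, by coat class (circles, number 1; squares, number 2). For Sgk1, Cebpd, Nr4a2 and Homer1 all squares lie above all circles, and for Flt1 all lie below.

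Promoters of 3 members without overlap are shown, as examples in which letters of a known hormone or activity element fall in the window. Each is the 250 bases before a RefSeq start in GRCm38.p6. Capitals in Nr4a2 (chr2:57124004-57124253, minus strand) and Homer1 (chr13:93303507-93303756, plus strand, 1 of its 2 listed starts) mark TGACG, searched on both strands and so also read as CGTCA, the core of the cyclic AMP response element. Capitals in Sgk1 (chr10:21993640-21993889, plus strand, 1 of its 6 listed starts) mark a match to a loose form of the palindromic glucocorticoid response element, which reads the same on both strands.
Nr4a2: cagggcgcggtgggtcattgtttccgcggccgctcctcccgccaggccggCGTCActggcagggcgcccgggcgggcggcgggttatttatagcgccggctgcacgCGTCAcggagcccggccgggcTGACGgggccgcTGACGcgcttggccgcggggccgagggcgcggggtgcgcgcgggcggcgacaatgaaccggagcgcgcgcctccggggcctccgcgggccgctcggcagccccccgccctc
Homer1: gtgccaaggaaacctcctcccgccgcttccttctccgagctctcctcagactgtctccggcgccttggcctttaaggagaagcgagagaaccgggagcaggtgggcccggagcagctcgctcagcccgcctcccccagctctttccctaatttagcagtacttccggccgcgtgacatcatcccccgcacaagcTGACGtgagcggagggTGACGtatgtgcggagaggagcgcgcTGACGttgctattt
Sgk1: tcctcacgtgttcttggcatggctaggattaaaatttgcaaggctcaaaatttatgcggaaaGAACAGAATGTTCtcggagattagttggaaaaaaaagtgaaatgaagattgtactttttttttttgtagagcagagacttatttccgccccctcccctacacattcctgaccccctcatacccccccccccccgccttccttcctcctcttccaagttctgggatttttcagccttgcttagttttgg
Nr4a2 held 4 of the TGACG matches and Homer1 3. Of 18 immediate early genes with an entry, 13 had at least 1 match in the 300-base window that runs on to 50 bases after the start, against 23.0% of all 27025 genes counted the same way (20.8% of 32851 windows); the median GC content was 59.7% in their windows and 52.7% in all. The Sgk1 match lay 188 bases before the start. It was found for 2 of 17 glucocorticoid-induced genes, Sgk1 and Mt1, a metallothionein, against 0.537% of all genes (0.475% of windows). Fos and Npas4, which did not share the direction of Nr4a2, belong to the same list, and a match describes letters and not binding.

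Clock genes had 5 of 17 tested members higher in number 2 at an unadjusted p under 0.05 and 1 in number 1 (median 0.12). Npas2, the forebrain partner of Bmal1, had 348, 205, 889, 407 and 351 against 749, 775, 955, 859 and 1068, and mottled 1 was the only number 1 brain inside the number 2 range. Rorb, a nuclear receptor of cortical layer 4 and the clock, had 954, 797, 1049, 936 and 923 against 1331, 1293, 1407, 1396 and 1364, without overlap. Hlf, a clock output factor, differed by 0.39 ± 0.25 and Clock by 0.32 ± 0.27. Rora, a receptor of the same family with its highest brain levels in cerebellum and thalamus, went the other way (-0.91 ± 0.82), with -1.38 in the unlike-signal and -0.19 in the like-signal pairs.

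Endothelial genes were lower in number 2 in both kinds of pair. Of 9 tested, 4 were higher in number 1 at an unadjusted p under 0.05 and 1 in number 2, with a median of -0.37 (-0.40 in the like-signal and -0.38 in the unlike-signal pairs). Slco1a4, an organic anion transporter of the blood-brain barrier, had 1501, 1083, 1584, 1211 and 1218 against 823, 626, 770.0, 827 and 970.5, and Flt1, a receptor for VEGF, had 289, 372, 314, 401 and 338 against 195, 192, 211, 243 and 219. In neither did the groups overlap. Abcb1a, the P-glycoprotein efflux pump, differed by -0.52 ± 0.40 and Cldn5, the tight junction claudin of brain vessels, by -0.37 ± 0.45. Slc2a1, the glucose transporter GLUT1, was the exception, higher in every number 2 brain than in any number 1 brain (0.43 ± 0.27), and it was also higher in number 2 in 5 of 5 livers and 5 of 5 kidneys (0.80 and 0.56). The summed signal of 11 endothelial and pericyte markers was 10698 to 12045 in number 1 and 8602 to 11216 in number 2.

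Receptor and channel genes of neurons had small positive medians. Of 11 tested GABA receptor subunits 3 were higher in number 2 at an unadjusted p under 0.05 and none in number 1 (median 0.17): Gabra5, Gabra4, which had 3000.4, 2501, 2706, 3326 and 2288 against 3438, 4174, 3939, 3752 and 4456 without overlap, and Gabra2 (0.87 ± 0.59). For 17 glutamate receptor subunits the counts were 4 and 2 (median 0.15). For 20 voltage-gated channels they were 2 and 1 (median 0.13, and above zero in all 5 pairs). The channel counts did not exceed the shares of all tested probe sets, 10.4% and 10%. Chromatin regulators split, with 6 of 27 higher in number 2, such as Arid1b, a BAF complex subunit (0.54 ± 0.16), and 2 in number 1, of which Kmt2a is given above (median 0.05). Splicing factors split as well, 5 of 29 against 3: Srsf5 had 7279.6, 7432, 5308, 5754 and 9282 against 4026, 3896, 4992, 4409 and 3510.0, while Srsf3 was higher in number 2 without overlap (0.40 ± 0.23), as was Hnrnpul1 in 5 of 5 pairs (0.70 ± 0.37). Hnrnpf differed along with the array signal, with 926, 1118, 5383, 5432 and 1241 against 3079, 5895, 5149, 3914 and 5580.2, low on only the 3 number 1 arrays of highest signal.

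Several lists of bright transcripts differed along with the highest signal of the array. Synaptic vesicle release, as bright as respiration, had medians of only -0.10 in the unlike-signal and 0.05 in the like-signal pairs. Part of its members still split. In the unlike-signal pairs, 7 of 22 passed an adjusted p of 0.05 as higher in number 1 and 0 in number 2. Of all tested probe sets 6.41% and 6.5% passed there. Oxidative phosphorylation subunits, which build the respiratory chain, had 5 of 28 tested members higher in number 1 at an unadjusted p under 0.05 and none in number 2 (median -0.25). That count was 0 without the yellow or the pseudoagouti pair, 1 without slightly mottled, 16 without mottled, and 0 with the highest signal as a covariate. Their median was -0.46 in the unlike-signal pairs and 0.06 in the like-signal pairs, and within number 1 alone the 3 brains of high highest signal lay 0.53 above the other 2. Cox4i1, a subunit of cytochrome oxidase, had 23340.1, 20290.0, 12377, 14481 and 20939 in number 1 and 12418, 11568, 14957, 11282 and 11098 in number 2, so mottled 1 and heavily mottled 1 sat with the number 2 brains. Ndufs5 and Sdha, of complexes I and II, differed by -0.85 and -0.71 in the unlike-signal pairs and by -0.05 and -0.03 in the like-signal pairs.

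The same split of the medians held for 4 other bright lists, though for ribosomal proteins only on average over the like-signal pairs. Cytosolic ribosomal proteins had a median of -0.41 in the unlike-signal and 0.08 in the like-signal pairs (21 tested; 3 higher in number 1 and 1, Rpl37, in number 2 at an unadjusted p under 0.05). Rpl8 differed by -1.12 and 0.11, and Rps29 by -0.72 and 0.01. The like-signal median of the ribosomal list joined opposite pairs, 0.39 in mottled and -0.23 in heavily mottled. Glycolysis had -0.47 and 0.17 (13 tested; 4 and 0), with Aldoc, the aldolase of astrocytes and Purkinje cells, at 23909, 24090.1, 11499, 12813 and 23860.1 against 12322, 9798, 11504, 11317 and 9615, and Pkm, pyruvate kinase, at -0.82 and -0.01. Cytoskeleton genes had -0.56 and 0.06 (23 tested; 8 and 2), with Actb at -0.94 and -0.01 and Actg1 at -0.81 and -0.07. Neuron markers had -0.62 and 0.15 (12 tested; 2 and 0), with Snap25 at -0.70 and 0.03 and Thy1 at -0.66 and 0.02, while Gap43, a growth cone protein, was lower in number 2 in 5 of 5 pairs (-0.50 ± 0.29). Leaving out 1 pair moved the counts higher in number 1 to 0 to 14 for ribosomal proteins, 1 to 6 for glycolysis, 0 to 12 for cytoskeleton and 1 to 6 for neuron markers, the lowest without 1 of the unlike-signal pairs and the highest without mottled or heavily mottled. The named members of these lists, apart from Rpl37, lie in the brightest signal bin, whose own median was -0.17 in the unlike-signal pairs, and the part of the array in these values cannot be told apart from a difference between the mice.

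Single members left these lists. Tubb2b, a tubulin of developing neurons, had 2319, 2114, 3291, 3151 and 2229.8 against 3811, 5117, 4837, 3416 and 4643, higher in every number 2 brain, and Pfn1, an actin-binding protein, was higher in number 2 in 5 of 5 pairs (0.75 ± 0.61, with 1.05 in the like-signal pairs). Heat shock chaperones had 3 of 18 higher in number 1 and 1 in number 2 at an unadjusted p under 0.05 (median -0.17). Their median was 0.02 in the like-signal pairs (0.13 in mottled, -0.16 in heavily mottled) and -0.31 in the unlike-signal pairs. Hspa8, the constitutive HSC70 and one of the brightest transcripts, had 30749, 28556, 17462, 20026 and 29128 against 16302, 16268, 20058, 15500.5 and 13442. It was higher in number 1 in the 3 unlike-signal pairs and in heavily mottled, and lower in mottled. Hspb1, a small heat shock protein, was lower in number 2 in both kinds of pair (-0.58 ± 0.38), and Hspa1b, the inducible HSP70, higher (0.40 ± 0.24). Of 15 ER chaperones 4 were higher in number 2 and 1 in number 1 (median -0.02), among them Sdf2l1 (0.89 ± 0.59) and Hyou1 (0.55 ± 0.54). The ER chaperone median was 0.20 in the like-signal and -0.15 in the unlike-signal pairs.

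**Figure D5:**
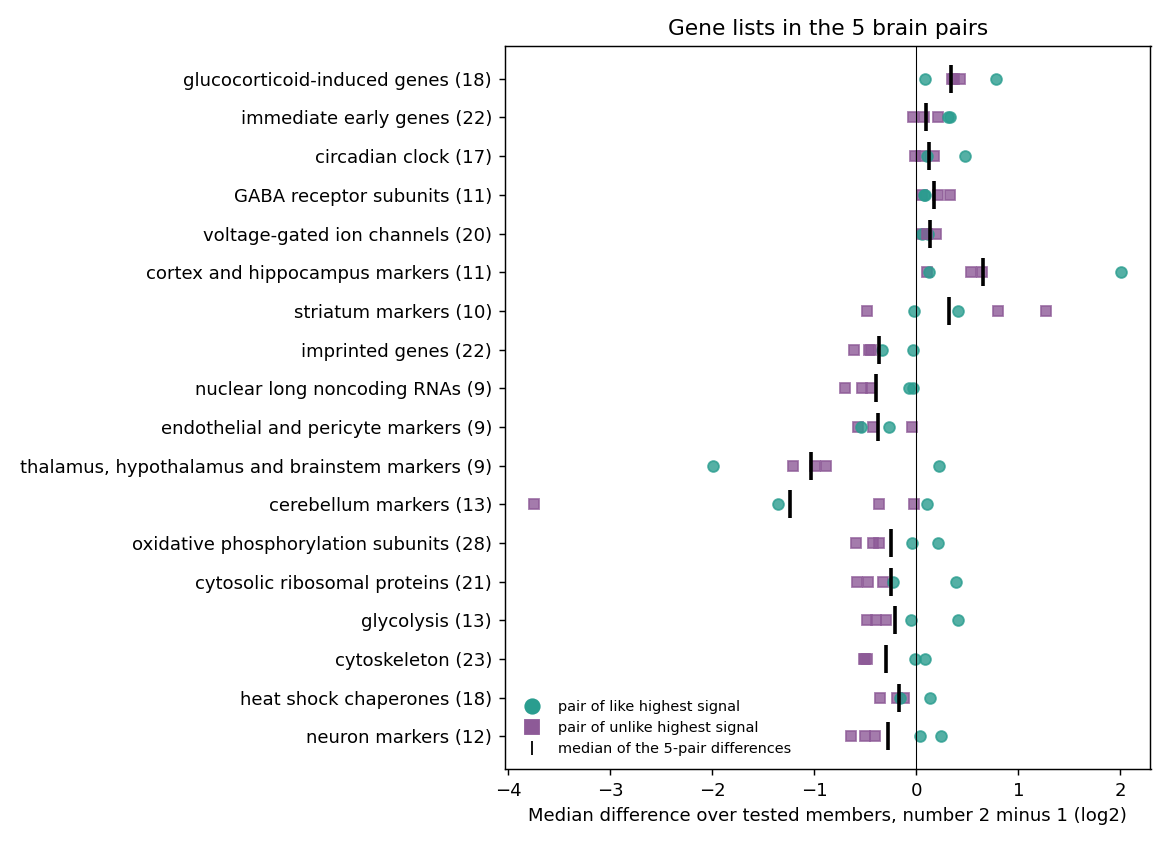
Median log2 difference over the tested members of 18 gene lists in each of the 5 pairs (circles, the 2 like-signal pairs; squares, the 3 unlike-signal pairs; bar, median of the members' 5-pair means; number of tested members in brackets). The glucocorticoid list lies above zero and the endothelial list below zero in all 5 pairs, while the cytoskeleton, glycolysis and neuron lists lie from -0.64 to -0.30 in the unlike-signal pairs and from -0.05 to 0.41 in the like-signal pairs.

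The remaining cell types and pathways are given here. The counts at an unadjusted p under 0.05, higher in number 2 and in number 1, were 0 and 0 of 11 microglia markers (median 0.18), 1 and 1 of 12 astrocyte markers (median -0.07), 0 and 3 of 12 myelin and oligodendrocyte markers (median -0.07), 1 and 0 of 8 oligodendrocyte precursor markers, and 1 and 3 of 11 meningeal and fibroblast markers. The astrocyte median was 0.14 in the like-signal and -0.23 in the unlike-signal pairs, and the myelin median 0.22 and -0.23. Mbp differed along with the array signal, with -0.89 in the unlike-signal and 0.05 in the like-signal pairs. A probe set of Mbp was the brightest on slightly mottled 1, pseudoagouti 1, yellow 2, mottled 2 and heavily mottled 2. The split of Mbp is therefore not independent of how the pairs were divided. Ptgds, a prostaglandin synthase of meninges and oligodendrocytes, was lower in number 2 in 5 of 5 pairs (-0.79 ± 0.57). Blood markers had 1 and 0 of 4, and MHC and interferon genes 1, B2m (0.34 ± 0.26), and 3 of 7. The MHC and interferon median was -0.37 over all pairs, with -0.44 in the like-signal and 0.15 in the unlike-signal pairs. Cholesterol synthesis had 1 and 0 of 17, the 1 being Insig1, a sterol sensor (0.82 ± 0.69), synaptic vesicle release 1 and 5 of 22, proteasome subunits 1 and 0 of 22, translation factors 1 and 1 of 17 and CCT chaperonin subunits 0 and 0 of 8. Eef1a1, the elongation factor, differed by -0.83 in the unlike-signal and 0.01 in the like-signal pairs.

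Whether the difference in brain was its own was tested as each mouse's brain value minus the mean of its liver and kidney values, with arrays of 1 class and number taken as 1 mouse. No probe set passed (limma, 0 of 22519, 0%; 4224 or 18.8% at an unadjusted p under 0.05; smallest adjusted p = 0.107). The 5 genes per direction with the smallest p all had an adjusted p of 0.107. Higher in brain of number 2 than the other organs would give were Kcnab3, a potassium channel beta subunit (1.54 in brain, 0.06 in liver and -0.05 in kidney), Atox1, a copper chaperone (0.52, -1.05 and 0.20), Aif1l (1.31, 0.39 and -0.92), Otub1, a deubiquitinase (0.52, -0.99 and -0.24), and Rpe, of the pentose phosphate pathway (0.65, -0.65 and -0.15). In the other direction were Cdc42ep4 (-0.79, 0.77 and 0.19), Lrp1, a lipoprotein receptor (-0.86, 0.49 and -0.04), Wnt7b, a Wnt ligand (-0.57, 0.34 and 0.77), Srrm3, a splicing factor of microexons (-0.65, 0.58 and 0.92), and Txn1, thioredoxin (-0.35, 1.56 and 0.65).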

How the data were processed

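Total RNA from frozen brain, liver and kidney was hybridised to Affymetrix whole-genome mouse arrays, 1 per sample. The authors deposited MAS5 signal intensities on a linear scale, per the submitters' processing notes; the version is not given in the sources used here, detection calls were not used here, and the values show a common trimmed mean with 2% removed at each end. No further normalisation was applied. Values were taken as log2(intensity + 16), with 64 control probe sets left out, and probe sets were tested where their mean over the 10 brain arrays was at least 160.5, the median of that mean. Number 2 was compared with number 1 in limma 3.58.1 (R 4.3.3; lmFit, eBayes with trend, coat class as a block) with Benjamini-Hochberg adjustment at 0.05, and every adjusted p in the text is from limma unless it is called a permutation p. The design pairs brains by coat class; deviations of the same class correlated from -0.336 to 0.158 over probe sets, so the classes did not pair the samples by their values. The code was tested on simulated data. For array-wide measures all 252 assignments of arrays to numbers were enumerated (exact permutation test, two-sided). Figures were drawn with Matplotlib 3.10.9 in Python 3.11.15.

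Gene names came from the platform annotation, in which 34945 probe sets had 1 symbol, 932 several and 9160 none. Only probe sets with 1 symbol were named, apart from the brightest on yellow 1. A gene of a list stands by its brightest probe set in brain. Of 651 genes in 39 lists, 589 had such a probe set and 541 were tested. The comparison, the lists and their members were chosen with earlier results of these data known. Named genes were the 12 per direction with the smallest p (since none passed), up to 4 members per list with the smallest p, and 5 per direction for brain against the other organs; further members and other probe sets of a gene were picked with their values in view. The precision is limited by 5 mice per number. Alternatives were no pairing, other pseudocounts (1 and 64), quantile normalisation, other filters, no suffix probe sets, covariates for highest signal and Gapdh ratio, each kind of pair alone, and each pair left out.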

Additional observations from a re-analysis of the deposited data

Results flagged for a closer look

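Single brains stood far from the other 4 of their number in 22 of 254 groups of values. Chance gives about 5% for groups not chosen by their values. The genes here were picked by p or with their values in view, so the 2 shares cannot be compared. Values of genes are log2(signal + 16). Pseudoagouti 1 stood above in the cerebellar genes Gabra6 (13.13), Cbln3 (12.62) and Pcp2 (13.57), and yellow 2 above in Gabra6 (6.988). Mottled 1 stood below the other number 1 brains in the hypothalamic genes Pmch (7.035) and Avp (6.66) and in Dlk1 (5.146), and slightly mottled 2 stood above in Pmch (10.35). Mottled 1 also stood above in Gm1976 (10.03), Zbtb16 (10.41) and the brightest probe set of Cux2 (10.67), as did slightly mottled 1 in Cebpd (8.403) and yellow 1 in Hlf (11.23). Mottled 2 stood below in Kcnab3 (6.144) and above in Aif1l (9.498) and in the bioB, bioC and bioD spikes (log2 9.872, 10.98 and 13.26). Pseudoagouti 2 stood below in Magel2 (7.282), Ttr (11.84) and Neurod6 (10.55). The Actb 3' over 5' ratio of heavily mottled 1 was 2.256, with the next highest of its number at 1.792.

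Among 117 probe sets of genes in the text, each set against liver and against kidney, 15 cases were split. In these all 5 brain pairs lay on one side and all 5 pairs of another organ on the other. The share over all tested probe sets was not counted. Atox1, Aif1l, Otub1, Rpe, Cdc42ep4, Lrp1, Wnt7b and Srrm3 were chosen by their p for brain against the other organs. That choice favoured opposite directions. Higher in number 2 in brain and lower in another organ were Slc1a2 (-0.74 in kidney), Gm1976 (-0.52 in liver), Atox1 (-1.05 in liver), Aif1l (-0.92 in kidney), Otub1 (-0.99 in liver), Rpe (-0.65 in liver) and Pfn1 (-0.57 in liver). Lower in number 2 in brain and higher in another organ were Cdc42ep4 (0.77 in liver), Lrp1 (0.49 in liver), Wnt7b (0.77 in kidney), Srrm3 (0.92 in kidney), Hspb1 (0.47 in kidney), a bright probe set of Meg3 (0.39 in kidney), Flt1 (0.21 in kidney) and Th (0.42 in kidney). The brain against a single other organ was not tested; against both together, no probe set passed in limma (smallest adjusted p = 0.107).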

How the results depend on the processing

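No probe set passed with all pairs and the pairing; counts below are higher in number 1, then in number 2. Without the replicate block 215 and 293 passed (14 for brain against the other organs). The 3 unlike-signal pairs gave 1444 and 1463, the like-signal pairs 5 and 0 (42 for brain against the other organs). The filter at the 75th percentile gave 0 and 2, and leaving out suffix probe sets 1 and 3. Leaving out 1 pair gave 0 to 186 and 0 to 280, and 0 for brain against the other organs; only without mottled (186 and 257) or heavily mottled (128 and 280) did any pass. Leaving out heavily mottled and pseudoagouti together, chosen after seeing the data, gave 0 and 0, as did the other settings. With no filter the median of all probe sets was -0.11. Differences changed sign under quantile normalisation for Hspa8 (0.0048), Rps29 (0.146), Eef1a1 (0.105), Snap25 (0.119) and Mbp (0.105). With the highest signal as a covariate they did so for Rpl8 (0.122), Rps29 (0.0491), Hnrnpf (-0.0748), Eef1a1 (0.0006), Actb (0.0112), Snap25 (0.0233), Mbp (0.0778) and Gh (0.661). In the like-signal pairs they did so for Rpl8 (0.108), Rps29 (0.013), Hnrnpf (-0.268), Eef1a1 (0.0146), Snap25 (0.0315), Thy1 (0.0243), Mbp (0.0505) and Gh (1.19). In the unlike-signal pairs Ttr (-0.36) and Txn1 (0.12) changed sign, and leaving out 1 pair gave -0.21 (without mottled) to 1.32 for Ttr. The cause was not tested. Array measures: without mottled, 6 of 10 passed an adjusted p of 0.05 by the exact permutation test, with so few arrays that measures could pass only several at a time.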
